A study of Drosophila melanogaster with 2 samples.

Results

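The 48 genes described here encode subunits of the Drosophila proteasome and close copies of them. They were taken from the 13986 protein-coding genes of the annotation by symbol: every gene whose symbol begins with Prosalpha, Prosbeta, Rpn or Rpt followed by a digit. Of these, 32 are canonical subunits (7 Prosalpha, 7 Prosbeta, 6 Rpt and 12 Rpn genes) and 16 are paralogues, whose symbols carry a T or an R after the subunit number. The data are peak lists from chromatin immunoprecipitation and sequencing (ChIP-seq) of CrebA, a CREB3-type leucine zipper transcription factor, in a line whose CrebA gene carries an extra intronic exon for enhanced GFP (a MiMIC insertion), so that an antibody to GFP precipitates the fusion protein. Whole wandering larvae of the third instar were used, males and females together, at an age given as unknown. There was 1 group, with 2 biological replicates numbered 4 and 2, chromatin sonicated to 200 to 800 bp, and no second genotype, treatment or time to compare. All cells of the animal contribute to a peak, so the strength of binding in a cell and the number of cells bound cannot be told apart, and the lists hold no measure of CrebA or of transcription in any tissue. A control entered the authors' peak calls, and its own peaks were not analysed here.

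The proteasome degrades proteins that carry ubiquitin chains. Its core particle is a stack of rings: the outer rings are built of alpha subunits, which gate the entrance, and the inner rings of beta subunits, of which beta1, beta2 and beta5 carry the proteolytic sites. A regulatory particle caps the core, with a ring of Rpt ATPases that unfolds the substrate and a set of Rpn subunits that bind ubiquitin, remove it and hold the particle together. In the fly many of the paralogues are known as testis forms that take the place of a canonical subunit during sperm development. Proteasome genes are expressed in nearly all cells, and CrebA is known for activating genes of the secretory pathway in secretory organs such as the salivary gland.

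No canonical subunit gene had a CrebA-eGFP summit within 500 bp of a transcript start in any list, not even in lists that hold background as well as peaks. The summits found were all at paralogues, and none of those in the pooled list had a signal as high as the weakest peak of the optimal list. The following 4 stretches are shown because they hold the pooled summits that lay upstream of a start. They are from the Release 6 RefSeq assembly (dm6), 5′ to 3′ on the strand of the gene. For the first 3 genes the stretch is 151 bases long and the 11 capitals mark the bases around the summit. For Rpn12R it is the 100 bases just before the start, and the capital marks the summit base.
Prosbeta5R2, chr2L:17990025-17990175, plus strand: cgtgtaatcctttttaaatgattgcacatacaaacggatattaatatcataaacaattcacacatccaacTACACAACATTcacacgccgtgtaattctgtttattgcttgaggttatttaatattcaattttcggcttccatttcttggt
Rpt6R, chr3R:30583865-30584015, minus strand: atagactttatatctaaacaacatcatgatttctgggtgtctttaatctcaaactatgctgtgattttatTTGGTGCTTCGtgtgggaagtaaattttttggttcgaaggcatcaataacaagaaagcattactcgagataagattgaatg
Prosbeta2R1, chrX:5808724-5808874, plus strand: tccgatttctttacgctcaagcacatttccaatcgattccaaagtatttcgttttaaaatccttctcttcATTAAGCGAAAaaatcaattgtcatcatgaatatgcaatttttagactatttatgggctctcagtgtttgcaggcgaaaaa
Rpn12R, chr3L:15042571-15042670, minus strand: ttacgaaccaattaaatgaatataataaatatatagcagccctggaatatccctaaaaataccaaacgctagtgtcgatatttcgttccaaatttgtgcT
None of the 4 stretches contained CCACGTCA, the CREB3 family site, or its inner CACGTCA on either strand, which is a statement about these letters only.

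The authors gave 4 lists on dm6. The optimal list, thresholded by the irreproducible discovery rate (IDR), held 2238 peaks, with a lowest signal of 76.92 and a median of 110.8 in the authors' units. The pooled list and the list of each replicate are relaxed: each holds 29999 entries of peaks and background together, whatever the data, with lowest signals of 15.59 (pooled), 8.886 (replicate 4) and 9.773 (replicate 2) and medians of 22.94, 13.09 and 15.07 in that order. A summit is the position of the highest point of a peak. A gene is said to have a summit where one lies within 500 bp of any of its annotated starts, and offsets are negative upstream of the start. Read counts are not in these lists, so depth is unknown, and each count below is a description with no test.

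In the optimal list 0 of the 48 proteasome genes had a summit, against 5.13% of all protein-coding genes (718 of 13986). In the pooled relaxed list 5 of the 48 did (10.4%), against 23.7% of all genes. In replicate 4 there were 6 (12.5%), against 24.3% of all genes, and in replicate 2 there were 2 (4.17%), against 26.0%. Both replicates had a summit at 2 proteasome genes (4.17%), against 17.4% of all genes, and at the same 2 genes the replicate summits lay within 200 bp of each other, against 14.8% of all genes. Any of the 3 relaxed lists had a summit at 6 (12.5%), against 34.0% of all genes, and all 3 had one at 2 (4.17%), against 16.0%. The members' share was below the background in all 8 of these counts, and in the relaxed lists the members split by kind. The canonical subunits had 0 of 32 in each of the 8. These counts depend on each other and are not 8 separate checks. A count of 0 in any of the 3 relaxed lists fixes 0 in each of them and in their overlaps, and nearly all optimal peaks are also pooled entries. The 16 paralogues had 5 in the pooled list (31.2%), 6 in replicate 4 (37.5%) and 2 in replicate 2 (12.5%), so their share was above that of all genes in the first pair of lists and below it in the last. They had 0 in the optimal list, below all genes, and 6 (37.5%) in any of the 3 relaxed lists, above all genes. In both replicates, by matching summits and in all 3 relaxed lists they had 2 each (12.5%), below all genes each time. Neighbours are not independent here: Prosalpha1 lies beside Prosalpha1R, and Prosbeta4R1 beside Prosbeta4R2. For the distances given below, Rpn9 and Rpt5 share their nearest peak in all 4 lists. Prosbeta6 and Rpn12 share theirs in the optimal list, the pooled list and replicate 4.

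**Figure D1:**
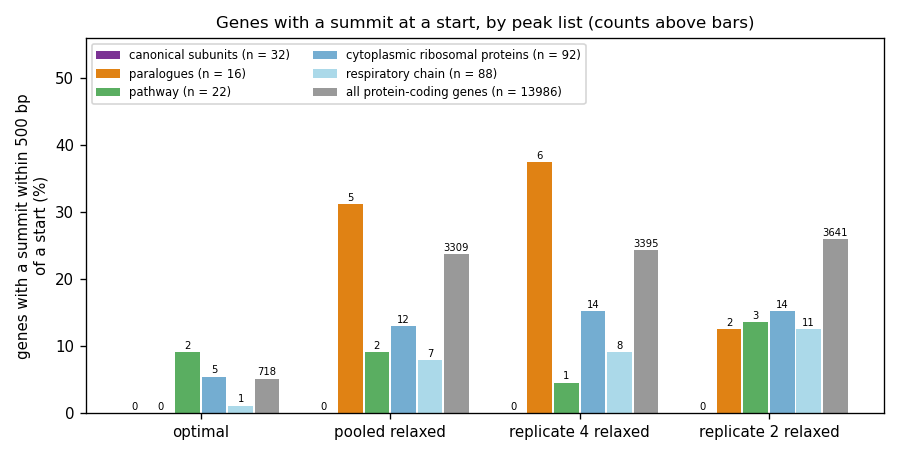
Share of genes with a summit within 500 bp of a start (percent, vertical axis) in each of the 4 peak lists, for 6 sets of genes. The number above each bar is the count of genes. The canonical subunits stand at 0 in every list, and the paralogues reach 31.2% in the pooled list and 37.5% in replicate 4, against 23.7% and 24.3% of all genes. In replicate 2 the paralogues are at 12.5%, against 26.0% of all genes, and in the optimal list at 0, against 5.13%.

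The genes differed in size and in their number of starts, which sets how much sequence is searched. The median length was 1390 bp for the canonical subunits, 1282 bp for the paralogues and 2162.5 bp for all genes, and the mean number of starts was 1.34, 1.12 and 1.40 in that order. Among genes with a single annotated start, a count added after seeing the data, 0 of 22 canonical subunits and 5 of 14 paralogues had a pooled summit, against 19.4% of 10286 genes. For these paralogues the count was 6 (42.9%) in replicate 4, against 20.2%, and 2 (14.3%) in replicate 2, against 20.9%. In the optimal list it was 0, against 2.93%. The part of gene density and chromatin in these shares was not tested.

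In the outer ring, 0 of the 7 Prosalpha genes (Prosalpha1 to Prosalpha7) had a summit within 500 bp in any list. Their nearest pooled summit lay 10794 bp away at the closest, at Prosalpha1, with a median of 14518 bp and a highest value of 32346 bp, at Prosalpha2. Prosalpha5 had its nearest summit of the optimal list 14518 bp from a start, in an intron of CG10939, with a signal of 119.6. Prosalpha3 had the closest summit of the ring in a single replicate, described further on.

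In the inner ring, 0 of the 7 Prosbeta genes had a summit within 500 bp. The nearest pooled summit was 25711 bp from Prosbeta1, which carries the caspase-like site, 8863 bp from Prosbeta2, which carries the trypsin-like site, and 27231 bp from Prosbeta5, which carries the chymotrypsin-like site. The structural members reached from 15794 bp at Prosbeta4 to 49010 bp at Prosbeta6, the largest distance of any canonical subunit in the pooled list. The inner ring's median, 25711 bp, was longer than that of the outer ring in the pooled list, and the same order held in both replicates, with 23225 bp in Prosbeta against 14515 bp in Prosalpha genes in replicate 4 and 26166 against 14061 bp in replicate 2. To the optimal peaks the medians were close, with 34132 bp in Prosbeta against 34990 bp in Prosalpha genes.

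The 6 Rpt genes encode the ATPase ring of the regulatory particle, and none had a summit within 500 bp. Rpt6 had the closest pooled summit, at 8955 bp, and Rpt3 the farthest, at 36988 bp. Rpt6 also had an optimal peak 9526 bp from its start (signal 79.18), in the 5′ UTR of Abca3, a neighbouring gene. Rpt3 was farther from an optimal peak than any other member, at 197742 bp.

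The 12 Rpn genes include the scaffold subunits Rpn1 and Rpn2, the ubiquitin receptors Rpn10 and Rpn13, the deubiquitinase Rpn11 with its partner Rpn8, and lid subunits such as Rpn3, Rpn5, Rpn6, Rpn7, Rpn9 and Rpn12. None had a summit within 500 bp. Rpn9 was the canonical subunit closest to an optimal peak, at 5012 bp: the peak lies at chr3R:23727797-23728200, with a signal of 89.29, in an intron of CG10365. The same gene had summits 4808 bp away in the pooled list (signal 73.66), 3073 bp away in replicate 4 (39.89) and 3086 bp away in replicate 2 (69.59). At Rpn11 the nearest summits lay at 25032 bp (pooled), 25033 bp (replicate 4) and 24748 bp (replicate 2), and at Rpn10 at 25771, 24494 and 26179 bp in the same order. At these 3 genes the lists placed the nearest summit within a few kilobases of each other. At Rpn13 they did not, with 24450 and 25868 bp in the pooled list and replicate 4 against 504 bp in replicate 2.

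**Figure D2:**
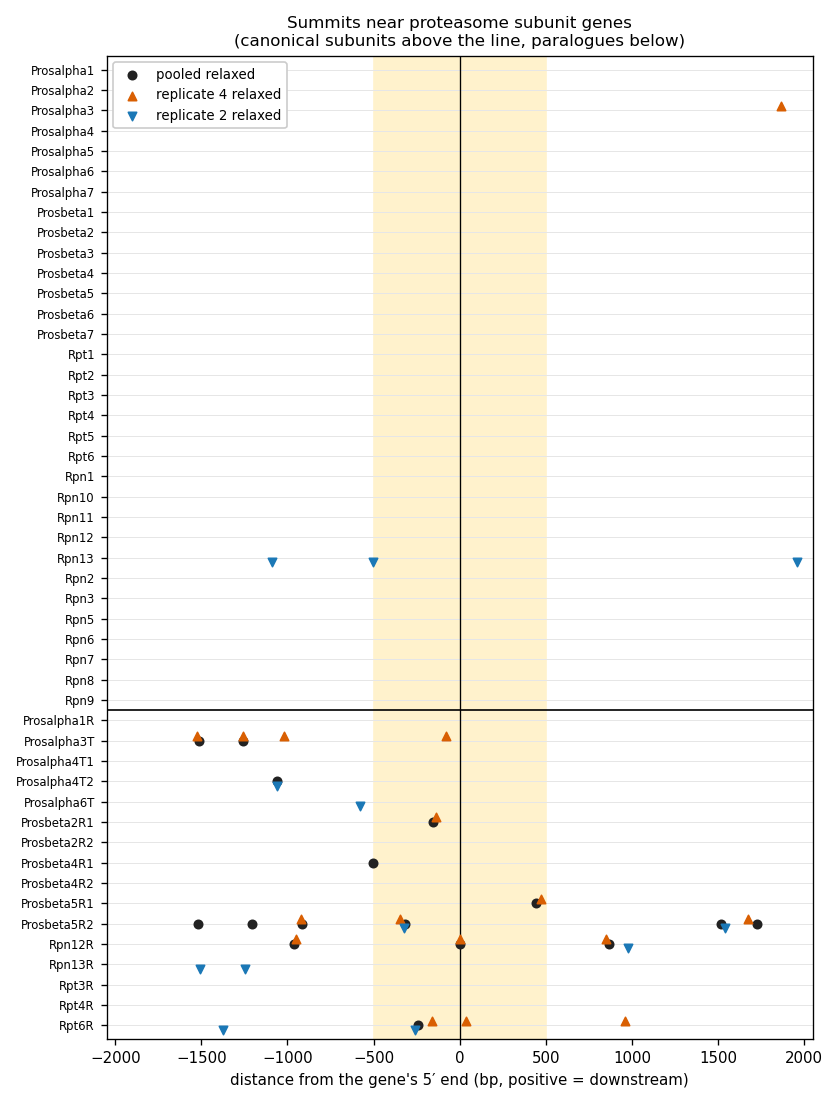
Every relaxed summit within 2000 bp of the 5′ end of each of the 48 genes (horizontal axis, bp, positive downstream), with canonical subunits above the line and paralogues below it; circles are the pooled list and triangles the replicates, and the band marks 500 bp. Among the canonical subunits summits appear only at Prosalpha3 (replicate 4) and Rpn13 (replicate 2), each outside the band, while 6 paralogues have summits inside it.

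Over wider distances the canonical subunits stayed below all genes. The paralogues varied with the list at 2000 bp and were above all genes in all 3 relaxed lists at 10000 bp. Within 2000 bp of a start, 0 of 32 canonical subunits and 50% of the 16 paralogues had a pooled summit, against 37.8% of all genes. In each replicate 1 canonical subunit (3.12%) and 37.5% of the paralogues had a summit within 2000 bp, against 40.1% of all genes in replicate 4 and 40.7% in replicate 2. Within 10000 bp the canonical count was 4 (12.5%), the paralogues stood at 93.8% and all genes at 61.7%. In replicate 4 the canonical count at 10000 bp was 5 (15.6%), against 65.5% of all genes, and in replicate 2 it was 8 (25%), against 67.7%. The paralogues at that distance stood at 87.5% in replicate 4 and 93.8% in replicate 2. The median distance to a pooled summit was 18828 bp for the canonical subunits and 2056 bp for the paralogues, against 5540 bp for all genes, and the 80th percentile of all genes was 18725 bp. In the replicates the canonical medians were 16910 bp (replicate 4) and 14358 bp (replicate 2), against 4268 and 3898 bp for all genes. The paralogue medians there were 3453 bp (replicate 4) and 3274 bp (replicate 2), closer to those of all genes than in the pooled list. To the peaks of the optimal list the order differed: 34391 bp for the canonical subunits and 70915 bp for the paralogues, against 32745 bp for all genes. Close to the starts, optimal summits were sparser at members of both kinds. An optimal summit lay within 5000 bp of 0 of 32 canonical subunits and 0 of 16 paralogues, against 12.9% of all genes. Within 10000 bp there were 2 canonical subunits (6.25%) and 0 paralogues, against 20.1%, and within 20000 bp there were 9 canonical subunits (28.1%) and 2 paralogues (12.5%), against 34.8%.

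**Figure D3:**
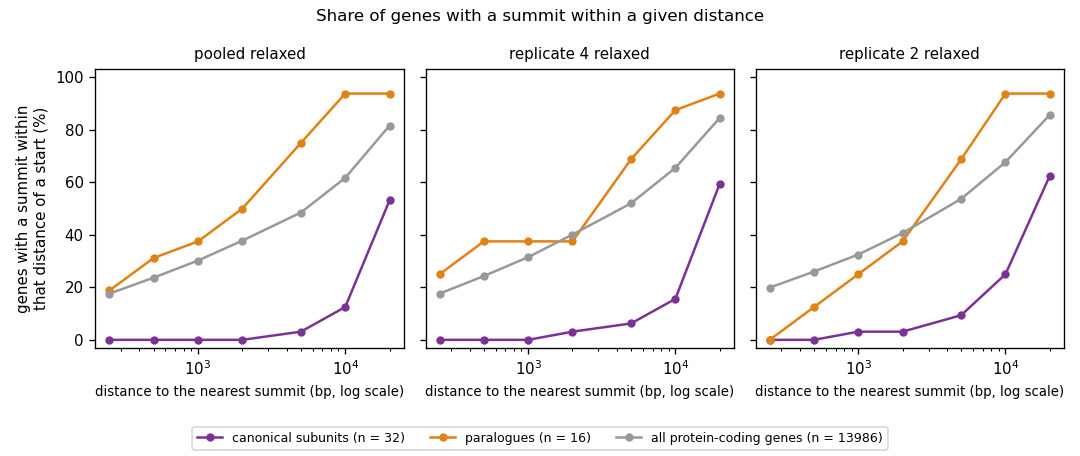
Share of genes (percent, vertical axis) with a summit within a given distance of a start (bp, log scale, horizontal axis) in the pooled list and each replicate. The line of the 32 canonical subunits is at 12.5% at 10000 bp in the pooled list, and the 16 paralogues are at 93.8%, against 61.7% of all genes.

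Inside the genes the canonical subunits again had no summit: none lay between the ends of such a gene in any list, against 24.1% of all genes in the pooled list, 26.4% in replicate 4 and 25.6% in replicate 2. The paralogues were below all genes as well, unlike at the starts in the pooled list and replicate 4. A pooled summit lay inside 3 of the 16 (18.8%), Prosbeta5R1, Prosbeta5R2 and Rpn12R. One of replicate 4 lay inside 3 (18.8%), Prosbeta5R1, Rpn12R and Rpt6R, and one of replicate 2 inside 0.

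Prosbeta5R2 (FBgn0051742, plus strand of 2L), a copy of the Prosbeta5 gene, had the strongest summit of any member. The pooled peak lies at chr2L:17989898-17990301, in intergenic sequence, with its summit 318 bp upstream of the start, a signal of 42.77 and rank 5349 of 29999. The summit of replicate 4 was at -345 bp (signal 16.13, rank 9678) and that of replicate 2 at -322 bp (18.43, rank 10769), 23 bp from each other. It was the only member whose pooled signal exceeded the median of all genes with a pooled summit, 36.57, and 56.5% of those genes had a weaker best summit. Its deposited −log10 q-value was 0.689, the highest at any member, and its pooled signal was below the 76.92 of the weakest optimal peak. Prosbeta5R2 also had further summits within 2000 bp, 6 in the pooled list in all.

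Rpt6R (FBgn0039788, minus strand of 3R), a copy of the Rpt6 ATPase gene, was the other member with a summit in every relaxed list. The pooled peak at chr3R:30583738-30584141 had its summit 243 bp upstream, with a signal of 18.71 and rank 22126. In replicate 4 there were 2 summits, at +37 bp in the 5′ UTR (signal 14.81) and at -163 bp (10.20). Replicate 2 had one at -258 bp, with a signal of 9.819 and rank 29800, close to the floor of 9.773 of that list. The nearest summits of the replicates lay 95 bp from each other.

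The other 4 paralogues had a summit in replicate 4 and none in replicate 2. Rpn12R (FBgn0036465, minus strand of 3L) is a copy of the lid subunit gene Rpn12 that lies in an intron of Sytbeta. It had a summit 1 bp upstream of the start in both the pooled list (chr3L:15042369-15042772, signal 20.44) and replicate 4 (15.02). Stronger summits lay near the 3′ end of this gene, at +866 bp in the pooled list (33.35) and +848 bp in replicate 4 (26.09). The nearest in replicate 2 was also near that end, at +975 bp (11.30). Prosbeta2R1 (FBgn0029812, plus strand of X), a copy of the trypsin-like subunit gene, had a pooled summit at -155 bp (chrX:5808597-5809000, signal 15.79), rank 29363 and close to the floor of 15.59, and one of replicate 4 at -135 bp (10.43). Its nearest summit in replicate 2 lay 6039 bp away. Prosbeta5R1, the other copy of Prosbeta5, had summits at +445 bp in the pooled list (17.92) and +472 bp in replicate 4 (15.43), inside its coding sequence. Prosalpha3T, a testis form of Prosalpha3, had a summit in replicate 4 alone, at -78 bp, with a signal of 9.772. No other gene had a start within 500 bp of any of these summits.

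The members just inside and outside the limit of 500 bp were few. Prosbeta5R1 was just inside, at 445 bp. Just outside were Prosbeta4R1, with a pooled summit at 504 bp (signal 16.96), Rpn13, with one of replicate 2 at 504 bp (58.96), and Prosalpha6T, with one of replicate 2 at 579 bp (10.05). The paralogues without a summit within 500 bp in any list were Prosalpha1R, Prosalpha4T1, Prosalpha4T2, Prosalpha6T, Prosbeta2R2, Prosbeta4R1, Prosbeta4R2, Rpn13R, Rpt3R and Rpt4R.

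**Figure D4:**
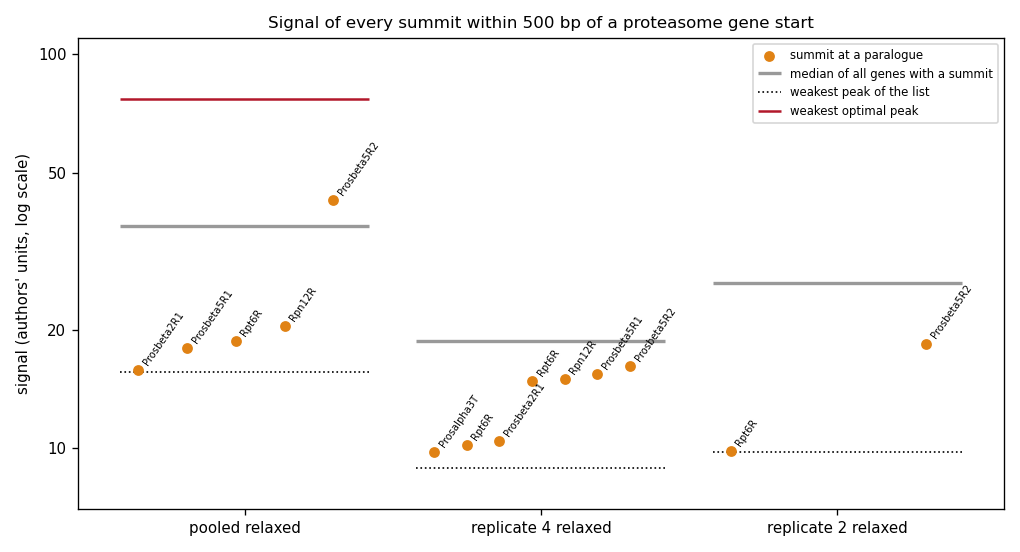
Signal of every summit within 500 bp of a member's start (authors' units, log scale, vertical axis) in each relaxed list, with the name of the paralogue beside each point. Grey bars are the median over all genes with a summit, dotted lines the weakest peak of the list and the red bar the weakest optimal peak; Prosbeta5R2 at 42.77 is the only point above a grey bar.

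As a group the members with a summit had low signals. The median best signal was 18.71 at the 5 members in the pooled list, against 36.57 at all genes with a pooled summit. In replicate 4 it was 14.91 at 6 members, against 18.73, and in replicate 2 it was 14.12 at 2 members, against 26.23. Apart from the spread used in the closing section, signals of different relaxed lists were not compared with each other. Of the 2238 optimal peaks, 2237 had the interval and signal of a pooled entry, so the weakest of them was set beside the pooled list.

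A few strong summits near canonical subunits in 1 replicate had no summit of the other replicate within 500 bp. In replicate 4 a summit 1867 bp downstream of the Prosalpha3 start had a signal of 82.32 and rank 361. It lies in the 5′ UTR of the next gene, CG10543, and the nearest summit of replicate 2 lay 2388 bp from the Prosalpha3 start, with a signal of 28.51. In replicate 2 Rpn13 had the summit 504 bp upstream (58.96, rank 1715), in an intron of CtsL1, and another past the 3′ end of the gene, 1964 bp from its nearest annotated start (70.54, rank 1150). Neither the pooled list nor the other replicate had a summit within 500 bp of any of these 3. At Prosalpha3 the summit of replicate 2 lay just past that limit. Of the 2238 strongest entries, 81 in replicate 4 (3.62%) and 371 in replicate 2 (16.6%) lacked a summit of the other replicate within 500 bp. A pooled summit within 500 bp was lacking at 132 in replicate 4 (5.90%) and 357 in replicate 2 (16.0%). Entries of either kind were more frequent in replicate 2.

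Beyond the members, 22 of 23 listed genes of the ubiquitin and proteasome pathway matched the annotation. Of these, 2 (9.09%) had an optimal summit at a start, against 5.13% of all genes, and 2 had a pooled one, against 23.7%. They were cnc, the fly homologue of the mammalian NRF factors that activate proteasome genes, and Rad23, a shuttle that carries ubiquitinated proteins to the proteasome. At cnc 4 optimal summits lay within 500 bp of its starts, the strongest at -64 bp (chr3R:23221823-23222226, signal 186.6, rank 327 of 2238) and the next at -27 bp of another start (131.3, rank 781). The replicates had the first at -63 bp (replicate 4, 85.12) and -66 bp (replicate 2, 103.2), 3 bp from each other. A gene with many starts is searched over more sequence, and the gene with the most in the pathway list had 10. Rad23 had a summit at +130 bp in its 5′ UTR in the optimal list (signal 80.40, rank 2074) and in replicate 2 (40.46), with none in replicate 4. Ubi-p63E, a polyubiquitin gene, had a summit at -10 bp in replicate 2 alone, with a signal of 167.5 and rank 143. The partners of Cnc on the list, maf-S and Keap1, and the assembly factor Pomp had no summit within 500 bp in any list. Cytoplasmic ribosomal protein genes and respiratory chain genes were also taken by symbol, with no copies set apart. In the pooled list 12 of 92 (13.0%) and 7 of 88 (7.95%) of them had a summit. The proteasome genes taken in the same way had 5 of 48 (10.4%), and the canonical subunits without their paralogues 0 of 32. In the optimal list the counts were 5 of 92 (5.43%), 1 of 88 (1.14%) and 0 of 48.

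The promoters of the members were searched for 8 short motifs on both strands, from 250 bases before the start to 50 bases from it on, 300 bases in all, beside 13980 promoters of the annotation. The CREB3 family site CCACGTCA was in 0 of the 48 member promoters, against 0.372% of all promoters, and its core CACGTCA, which lies within it, in 0, against 1.42%. The E-box CACGTG was in 0, against 4.19%, and the cyclic AMP response element TGACGTCA in 0, against 0.436%. At such shares few or no matches would be counted in 48 promoters of any kind. TATCGATA, the DNA replication-related element (DRE) bound by the DREF factor and known from promoters of broadly expressed genes, was in 12 of 32 canonical promoters (37.5%) and 0 of 16 paralogue promoters, against 9.35% of all promoters. GGTCACACT, the core of the fly promoter element Motif 1, was in 5 canonical promoters (15.6%) and 0 paralogue promoters, against 6.03%. TGACNNNGC, the element of Cnc and Maf proteins, was in 5 canonical promoters (15.6%) and 1 paralogue promoter (6.25%), against 8.61%. GAGAG, bound by GAGA factor, ran the other way, with 3 canonical promoters (9.38%) and 6 paralogue promoters (37.5%), against 29.7%.

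**Figure D5:**
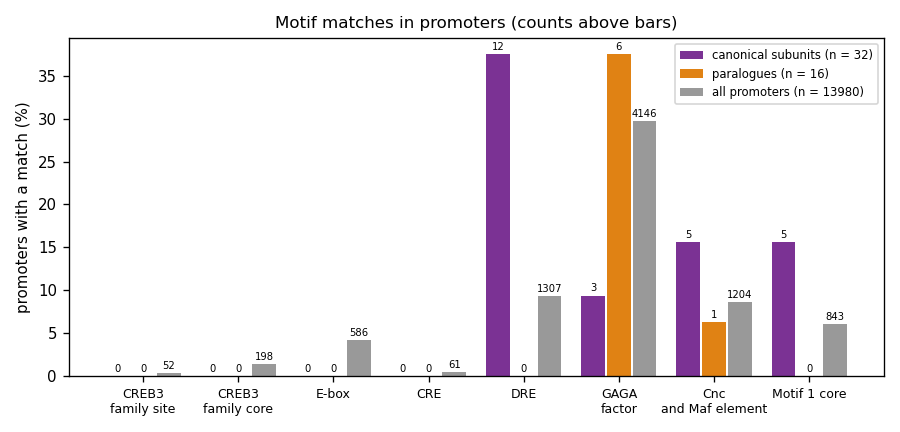
Share of promoters (percent, vertical axis) that hold each of the 8 motifs, for the canonical subunits, the paralogues and all promoters. The DRE is in 37.5% of canonical promoters and 0 paralogue promoters, against 9.35% of all promoters, and GAGA factor's motif is in 9.38% and 37.5% of them, against 29.7%.

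The canonical promoters with a DRE spread over all subunit classes. The following 6 are shown, of 40 bases each with the DRE in capitals, because the DRE was the motif found in the most canonical promoters, 12 of 32, and it was in 0 of the 16 paralogue promoters. The sequences are again Release 6 RefSeq (dm6), 5′ to 3′ on the strand of the gene.
Prosalpha6, chr2L:10221319-10221358, plus strand: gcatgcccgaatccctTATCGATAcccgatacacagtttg
Prosbeta2, chr3L:14999925-14999964, plus strand: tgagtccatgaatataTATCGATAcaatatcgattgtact
Prosbeta6, chr3L:16610439-16610478, minus strand: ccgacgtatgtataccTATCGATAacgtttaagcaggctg
Rpt5, chr3R:23752814-23752853, plus strand: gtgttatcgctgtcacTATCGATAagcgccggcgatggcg
Rpn7, chr3R:22462028-22462067, minus strand: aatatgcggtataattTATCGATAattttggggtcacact
Rpn12, chr3L:16582796-16582835, plus strand: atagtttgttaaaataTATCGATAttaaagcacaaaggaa
The first base of the DRE lay 16 bases before the start at Prosalpha6, 10 before it at Prosbeta2, 44 at Prosbeta6, 46 at Rpt5 and 216 at Rpn12, and 3 bases past the start base at Rpn7. At Rpn7 the last bases of the stretch are the Motif 1 core, and the gene also had the Cnc and Maf element and GAGAG.

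The other DRE promoters were those of Prosalpha3, Prosalpha5, Prosbeta1, Rpn3, Rpn9 and Rpn13. Over all 12, the first base lay from 217 bases before to 26 bases after the start, before the start in 10 and within 100 bases of it in 8. The Cnc and Maf element was in the promoters of Prosalpha2, Prosbeta3, Rpn1, Rpn7, Rpt6 and Prosbeta4R2, and the Motif 1 core in those of Prosalpha2, Prosalpha4, Prosbeta3, Rpn1 and Rpn7. Prosalpha2, Prosbeta3, Rpn1 and Rpn7 held both. The letters of both motifs can overlap, and matches shared bases at Rpn1 (first bases at -5 and -1) and at Prosbeta3 (-220 and -216). Prosbeta3 had a further Cnc and Maf match, at -227, apart from the Motif 1 core. None of the genes named here for the DRE or these elements had a CrebA-eGFP summit within 500 bp. Of the 5 members with a pooled summit, within 100 bp of the summit the only match to any of the 8 motifs was GAGAG at Prosbeta2R1.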

How the data were processed

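The sources were ChIP-seq peak lists of 1 group of 2 replicates. Per the deposited notes, the authors called relaxed peaks on dm6 for each replicate and for the pooled reads against a control, and thresholded the optimal list by IDR. Which aligner, peak caller and cutoff were used is not given in the sources used here. The signal of each peak and its −log10 q-value are the authors' deposited values. How the signal was scaled to depth is not stated. Apart from the spread used in the closing section, the signal was used only to describe and rank peaks within a list. Lists on dm3 were not used. Genes came from Ensembl release 115 (BDGP6.54), sequences from Release 6 RefSeq. Summits within 500 bp of any annotated start were counted with Python 3.11.15 and pandas 2.3.3, and the counting was tested on simulated data. The named genes are all members by symbol, with full values for those with a summit in all 3 relaxed lists, the pathway list and genes sharing a summit; others named for small counts or strong single-replicate summits were chosen after their values were seen. The members, lists and motifs were chosen with earlier results of these data known. No test was made, because the design has no groups to compare.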

Additional observations from a re-analysis of the deposited data

How the results depend on the processing

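The count of members with an optimal summit was also 0 under the alternatives that could have raised it. These were a limit of 1000 bp and, in place of the optimal list, the 2238 strongest entries of either replicate alone. The optimal list itself cannot be rebuilt from 1 replicate. The other alternatives (250 bp, gene 5′ ends only, the stronger peaks by median signal, no paralogues, single-start genes) can only lower a count. Peak intervals covering a start also gave 0. At the median optimal peak width of 404 bp, a peak covering a start has its summit within 500 bp, so this setting was no separate check. Of 45 alternatives over all results, 28 stayed within 1.5 times the reported value or its spread and 17 moved. The spread, used for the median pooled signal alone, was the standard deviation of the medians in the 2 replicates. The 28 include alternatives that could not raise the optimal count of 0. The 5 members in the pooled list became 3 at 250 bp, 2 where the interval must cover a start and 1 among the stronger peaks, and ranged from 2 (without replicate 4) to 6 (without replicate 2), which are the counts of the other replicate's own relaxed list. The 2 in replicate 2 became 0 at 250 bp, 5 at 1000 bp, 0 by intervals and 1 among the stronger peaks. The 2 in both replicates became 0 at 250 bp, 0 by intervals and 1 among the stronger peaks, and the 2 with matching summits became 1 there. Without the paralogues the counts of the pooled list, of replicate 4, of replicate 2 and of both replicates were each 0. The median pooled signal of 18.71 became 42.77 among the stronger peaks, where only Prosbeta5R2 is left. The canonical count was 0 in all of the distance, start, interval and strength settings except replicate 2 at 1000 bp, where it was 1 (Rpn13). No paired analysis was possible because there is 1 group. Depth is unknown, the relaxed lists have a fixed length, and weak summits near their floors cannot be told apart from background.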
